A study of Mus musculus with 6 samples.

Results

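Vitamin A reaches cells as retinol and acts as retinoic acid, and 9 genes of this route were followed in pancreatic islets of wild-type (FXR+/+) and FXR knockout (FXR-/-) mice. FXR, encoded by Nr1h4, is a nuclear receptor for bile acids that binds DNA with the retinoid X receptors. The 9 genes are Rbp4, Stra6, Rdh10, Aldh1a1, Aldh1a2, Crabp1, Crabp2, Cyp26a1 and Cyp26b1, and all 9 were found by symbol among the 19342 genes counted. They were chosen from the values of the FXR-/- against FXR+/+ comparison, in which Cyp26b1 stood out, so that comparison is given for them as a description. How many of them pass a threshold is printed beside the share of all genes that do, and nothing is read from it. The samples were 6 mRNA libraries of islets freed from the pancreas at 3 months of age, with 1 female and 2 male libraries of each genotype (female 1, male 1 and male 2). The knockout line is on the C57Bl/6 background and the labels name no treatment beyond the isolation. Whether a library holds 1 mouse or several, and whether the controls were littermates, is not given in the sources used here, so the spread between libraries may be technical.

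Retinol travels in blood on RBP4, held in a complex with transthyretin, and enters cells through the receptor STRA6. RDH10 oxidizes retinol to retinal, and the retinaldehyde dehydrogenases ALDH1A1 and ALDH1A2 oxidize retinal to retinoic acid. CRABP1 and CRABP2 bind retinoic acid in the cytosol, and CYP26A1 and CYP26B1 hydroxylate it for clearance. Retinoic acid works through the receptors RARA, RARB and RARG paired with retinoid X receptors, and it is known for patterning the pancreas in the embryo and for the quiescent, vitamin A-storing state of pancreatic stellate cells.

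Retinoic acid receptors bind direct repeats of a short half-site, and the promoters are shown here because Cyp26a1, Cyp26b1 and Rarb are known as genes that retinoic acid itself induces. The 250 bases before each start in RefSeq (GRCm38.p6) were searched on both strands for 2 half-sites in direct repeat with 5 bases between them (DR5), where a half-site was any of 4 forms: the consensus AGGTCA, its variant AGTTCA, or one of the forms that start with G, namely GGGTCA or the form GGTTCA. The promoter table held 7 of the 9 genes and 49 of the other retinoid genes described further on. The stretch of Cyp26b1 is chr6:84593909-84594060 on the minus strand, that of Cyp26a1 is chr19:37697558-37697797 on the plus strand, and the site in Rarb is shown with its flanks, chr14:16575506-16575535 on the minus strand. Letters run 5′ to 3′ along each gene, and capitals mark the DR5.

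Cyp26b1: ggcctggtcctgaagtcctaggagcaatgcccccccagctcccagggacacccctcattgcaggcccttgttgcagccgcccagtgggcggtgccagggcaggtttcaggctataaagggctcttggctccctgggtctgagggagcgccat
Cyp26a1: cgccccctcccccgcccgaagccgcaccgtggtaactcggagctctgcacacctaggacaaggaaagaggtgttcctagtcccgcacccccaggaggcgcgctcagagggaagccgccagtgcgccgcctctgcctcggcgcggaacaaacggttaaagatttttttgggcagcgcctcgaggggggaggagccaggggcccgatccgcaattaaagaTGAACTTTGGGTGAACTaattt
Rarb: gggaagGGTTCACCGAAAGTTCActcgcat

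A DR5 was found before 28 of 27025 genes (0.104%), and Cyp26a1 and Rarb were the members of the retinoid lists among them. In Cyp26a1 the repeat lay 15 bases before the RefSeq start and in Rarb 36 bases before it, within a longer first exon of another GENCODE transcript. These letters were not in the window of Cyp26b1. Repeats of the same half-sites spaced by 1 base were found before 53 genes (0.196%) and by 2 bases before 55 genes (0.204%), and none of the 7 genes with a promoter in the table was among either set. The inverted repeat of AGGTCA with 1 base in between (IR1), the form bound by FXR with a retinoid X receptor, was found before 2 genes (0.0074%) and before none of the 7.

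The libraries held 20629306 to 30139235 gene counts. Islet hormones dominated all of them, with 132296 to 199792 CPM of Ins2 (counts per 1000000 of the TMM-scaled library size) and 20207 to 35844 of Gcg. Nr1h4, the targeted gene, was at 14.2, 13.6 and 12.2 CPM in the FXR+/+ libraries (female 1, male 1, male 2) and at 5.67, 7.62 and 5.8 CPM in the FXR-/- libraries, lower in each FXR-/- library but not absent. In the FXR+/+ male 1 library, markers of B cells and follicles stood apart, with Ms4a1 at 4.8 and Cr2 at 4.61 CPM against at most 0.688 CPM in the other 5. Digestive enzyme and other acinar markers took 5.04% to 14.6% of all counts, and were highest in the male 1 library of each genotype.

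In these islets the carrier gene Rbp4 had by far the highest level of the 9, the genes of retinoic acid synthesis were low, and of the 2 clearance enzymes followed only Cyp26b1 was counted above 4 in any library. The plot of all 9 genes by library shows this order. Per kilobase of exon (GENCODE vM21, all exons of a gene merged), Rbp4 had 111 ± 21.7 CPM in FXR+/+ and 128 ± 13.2 in FXR-/- libraries (mean ± SD, n = 3 each). Rdh10 followed at 1.87 ± 0.167 and 1.68 ± 0.124 CPM per kilobase. Aldh1a1 was at 0.497 ± 0.161 and 0.689 ± 0.148. On the same scale Cyp26b1 had 0.273 ± 0.165 CPM per kilobase in FXR+/+ and 1.73 ± 0.883 in FXR-/- libraries. In FXR+/+ islets its range overlapped that of Aldh1a1, whereas in FXR-/- islets it overlapped that of Rdh10 and lay above Aldh1a1 in every library. These levels use gene counts, of which the listed exons held 11.1% for Rbp4, 24% for Aldh1a1, 56.6% for Rdh10 and 77.1% for Cyp26b1. Exon counts in the FXR+/+ libraries were 31, 37 and 13 for Cyp26b1 and 10, 11 and 21 for Aldh1a1. The order of levels is thus uncertain, and Aldh1a1 is also overlapped by C730002L08Rik and Gm6684. Aldh1a2 averaged 0.375 ± 0.507 CPM per kilobase in FXR+/+, a mean made by the female library at 0.96, and 0.0815 ± 0.0689 in FXR-/-. The other 4 genes averaged 0.128 CPM per kilobase or less in both genotypes and could not be ordered at this depth.

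**Figure D1:**
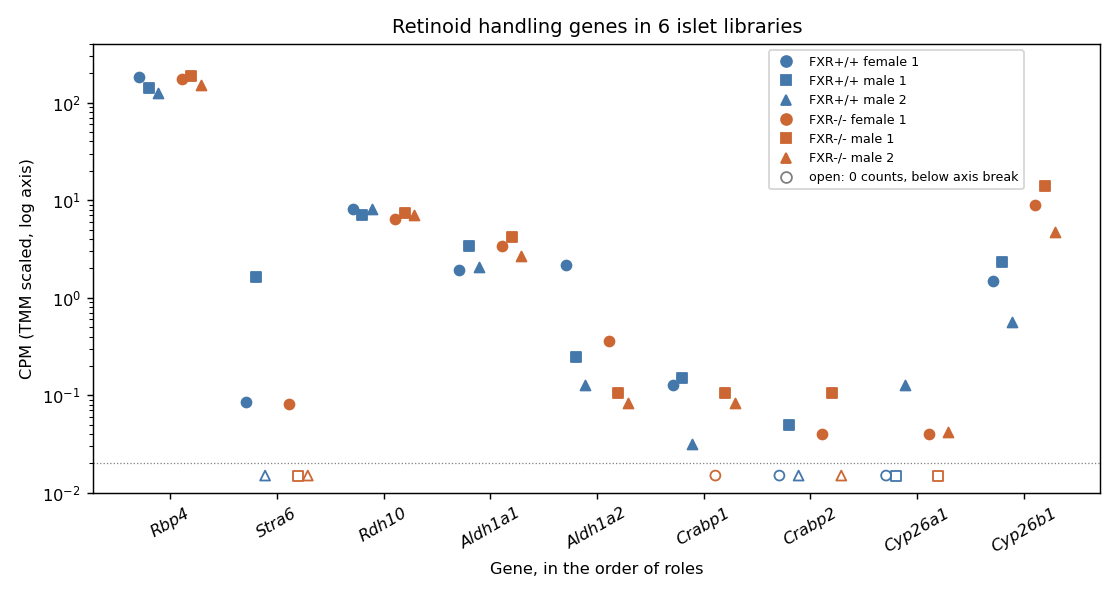
TMM-scaled CPM (log axis) of the 9 retinoid handling genes in each of the 6 libraries, FXR+/+ in blue and FXR-/- in orange, with open symbols below the dotted line for 0 counts. Cyp26b1 is the gene whose 3 FXR-/- libraries, at 4.71 to 14.1 CPM, all sit above the 3 FXR+/+ libraries, at 0.568 to 2.33 CPM.

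Rbp4, the plasma carrier of retinol, is also a gene of islet delta cells. Its counts were 4277, 2847 and 3988 in the FXR+/+ libraries and 4338, 3576 and 3641 in the FXR-/- libraries (female 1, male 1, male 2). After scaling these were 182, 141 and 126 CPM against 176, 188 and 153 CPM. The genotypes overlapped, with the FXR-/- library higher in both male pairs and slightly lower in the female pair, and the log2 fold change of FXR-/- over FXR+/+ was 0.22 (SE 0.123). Across the 6 libraries the profiles nearest to that of Rbp4 were those of Tubb1 (Pearson r of log2 CPM 0.997), Ttr (0.986) and Meis1 (0.986), the highest of 14618 other genes. Ttr encodes transthyretin, the partner of RBP4 in plasma and an abundant product of islet alpha cells, and it ran from 1253 CPM in FXR+/+ male 2 to 2301 CPM in FXR-/- male 1. These correlations over 6 libraries are given as a description, since all genes of a library share its depth and its mixture of cells.

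Stra6, the membrane receptor for RBP4, was almost uncounted. The FXR+/+ libraries gave 2, 33 and 0 counts of it and the FXR-/- libraries 2, 0 and 0. The 33 counts came from FXR+/+ male 1, the library that also held the B cell and follicle markers, whose part in this value was not tested. Without that library no Stra6 count exceeded 2, and a count of 0 allows up to 3 counts, or 0.0946 to 0.158 CPM in these libraries. A further limit is that Stra6 is overlapped by Ccdc33 and Gm16131, and whether counting used strand is not given in the sources used here.

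Rdh10, the main retinol dehydrogenase of embryos, varied least between libraries of a genotype among the 4 members tested (pooled SD 0.121 of log2 CPM). Its counts were 192, 141 and 260 in FXR+/+ and 159, 142 and 167 in FXR-/- libraries, or 8.18, 6.98 and 8.2 CPM against 6.44, 7.46 and 7.02 CPM. The FXR-/- library was lower in the female and male 2 pairs and higher in the male 1 pair, and the groups overlapped, with a log2 fold change of -0.16 (SE 0.145). Its nearest profiles were Nt5c (r = 0.983), Hnrnpm (0.981) and Mageh1 (0.978).

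Aldh1a1, a cytosolic retinaldehyde dehydrogenase, had 45, 68 and 66 counts in FXR+/+ and 83, 79 and 64 in FXR-/- libraries. In CPM these were 1.92, 3.37 and 2.08 against 3.36, 4.15 and 2.69. Each FXR-/- library was above its FXR+/+ partner of the same number, by 1.75, 1.23 and 1.29 times, yet FXR+/+ male 1 exceeded 2 of the 3 FXR-/- libraries and the groups overlapped. The log2 fold change was 0.49 (SE 0.28). Fstl4 (r = 0.992), Plec (0.991) and Adgrl2 (0.989) had the nearest profiles. Mouse Aldh1a7 is a close copy of Aldh1a1 and was counted at similar levels, from 48 to 72 counts, so how reads were shared between the pair is uncertain.

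Aldh1a2, the dehydrogenase of mesoderm, had 51, 5 and 4 counts in FXR+/+ and 9, 2 and 2 in FXR-/- libraries and did not pass the filter on low counts. The female library was the highest of each genotype, and FXR+/+ female 1 alone held 51 of the counts, at 2.17 CPM against 0.0841 to 0.364 CPM in the 5 others. Aldh1a2 is also a gene of mesothelium, and of 6 mesothelial markers Msln was at 42.7 to 117 CPM, with 65 CPM in FXR+/+ female 1, and Krt19, which ductal cells share, at 2.74 to 6.05 CPM, with 4.64 CPM in that library. The other 4, Upk3b, Lrrn4, Wt1 and Upk1b, were at 0.445 CPM or less in every library, with 0.0426, 0, 0 and 0.128 CPM in FXR+/+ female 1. The part of mesothelium in the Aldh1a2 counts was not tested. The 2 binding proteins of retinoic acid were at the limit of detection. Crabp1 had 3, 3 and 1 counts in FXR+/+ and 0, 2 and 2 in FXR-/- libraries, and Crabp2 had 0, 1 and 0 against 1, 2 and 0. No fold is given for either, since both genotypes were at or under 3 counts.

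The CYP26 enzymes, which end the action of retinoic acid, differed from each other in level. Cyp26a1, the form with the DR5 shown above, had 0, 0 and 4 counts in FXR+/+ and 1, 0 and 1 in FXR-/- libraries. Cyp26b1 was counted 35, 47 and 18 times in the FXR+/+ female 1, male 1 and male 2 libraries and 221, 269 and 112 in the FXR-/- libraries of the same numbers. In CPM these were 1.49, 2.33 and 0.568 against 8.95, 14.1 and 4.71, so that every FXR-/- library lay above every FXR+/+ library, and the lowest FXR-/- value was still above the highest FXR+/+ value. Within a genotype, male 1 was highest and male 2 lowest. The ratio of FXR-/- to FXR+/+ was 6 for female 1, 6.07 for male 1 and 8.29 for male 2.

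The log2 fold change of Cyp26b1 was 2.71 (SE 0.554), a 6.54-fold higher level in FXR-/- islets. A fit with a replicate block, which compares libraries of the same number, gave the same value: the log2 fold change was again 2.71 with an SE of 0.181. It ran from 2.13 to 3.30 when each library was left out in turn, and was 3.30, or 9.84-fold, without FXR+/+ male 1. With a term for acinar RNA it was 2.10 (SE 0.23), or 4.28-fold. No value under any alternative had the opposite sign. Cyp26b1 was chosen from this comparison and its libraries did not overlap, so the sign could hardly change and nothing is read from it.

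Of the 9 genes, 4 passed the filter on low counts, Rbp4, Rdh10, Aldh1a1 and Cyp26b1. By edgeR's quasi-likelihood test with Benjamini-Hochberg adjustment, none of them was under an adjusted p of 0.05, and neither was any of the 14619 genes tested (0%). At an unadjusted p under 0.05, 903 genes were higher (6.18%) and 607 lower (4.15%) in FXR-/- islets, so 59.8% of these were higher, a share that was 29% when libraries were scaled by their size alone. Cyp26b1 was among those higher. With the replicate block 23 genes had an adjusted p under 0.05 (0.157%), and by DESeq2 168 genes (1.15%); Cyp26b1 was called with the block and not by DESeq2. Libraries did not overlap between genotypes, with FXR-/- above, for 1171 genes (8.01%), which included Cyp26b1 and none of the other 3 genes tested. Since the genotype comparison chose the members, nothing is read from these counts.

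Most of the exon counts of Cyp26b1 lay in its last exon, as did those of Aldh1a1 (97.9%), Rbp4 (76.3%) and Rdh10 (67.7%). Cyp26b1 is a minus-strand gene of chromosome 6, between 84571414 and 84593908 (GRCm38, GENCODE vM21), and overlaps no other annotated gene. The exon table lists 5 of its exons, numbered from the lower coordinate, so that number 1 is the last exon of the gene. That exon, from 84571414 to 84574659, is 3246 bases long, of which 390 are coding and the rest 3′ UTR, and it held 86.7% of the exon counts. Its counts were 28, 31 and 13 in FXR+/+ against 152, 170 and 75 in FXR-/- libraries. Exon number 6, from 84587802 to 84588193, which holds the start of the coding sequence, had 0, 5 and 0 counts against 12, 22 and 10. The FXR-/- libraries were above the FXR+/+ libraries in both of these exons, and the 3 other exons listed had at most 7 counts in any library. Summed over its exons, Cyp26b1 had 31, 37 and 13 counts in FXR+/+ and 174, 198 and 88 in FXR-/- libraries.

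**Figure D2:**
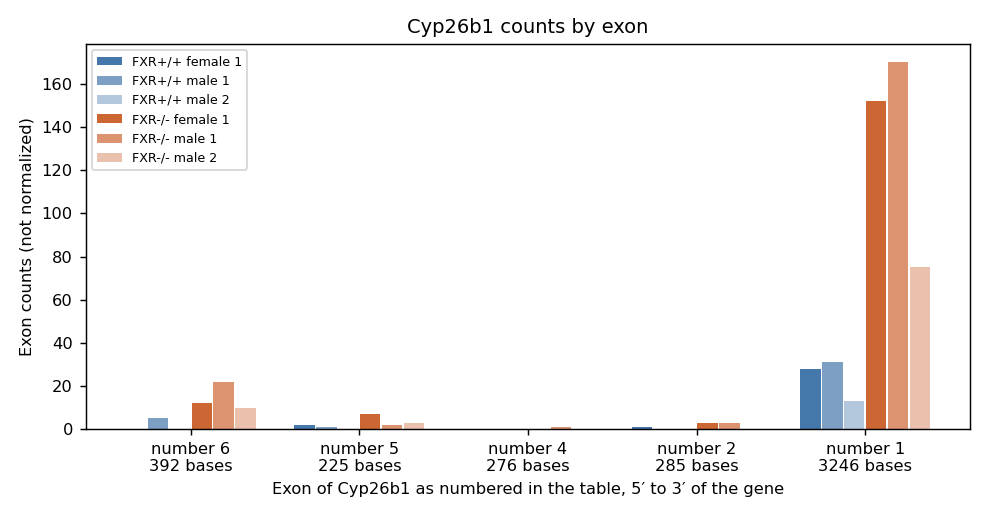
Counts, not normalized, in the 5 listed exons of Cyp26b1, drawn from the 5′ to the 3′ end of the gene, with 1 bar for each library. The last exon, of 3246 bases, reaches 152, 170 and 75 counts in the FXR-/- libraries against 28, 31 and 13 in the FXR+/+ libraries.

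In bulk islets, more cells of a type and more RNA per cell cannot be told apart, so markers of the other cells in the preparation are given beside Cyp26b1. Of all 14619 genes tested, 7536 were higher in FXR-/- and 7083 lower. Markers of stellate cells and fibroblasts were higher in FXR-/- for 13 of 13 genes tested (median log2 fold change 0.87, against 0.01 over all genes). Their summed level ran from 86.3 to 240 CPM in FXR+/+ and from 220 to 250 in FXR-/- libraries. The sum was highest in FXR+/+ male 1 among the FXR+/+ libraries, as was Cyp26b1, and in FXR-/- male 1 among the FXR-/- libraries, again as was Cyp26b1. That order was not particular to this list. Male 1 was also highest in both genotypes for the endothelial, macrophage, pericyte and smooth muscle, acinar, ductal, adipocyte and PP cell sums. It was not highest in both genotypes for the beta, alpha, delta, mesothelial, lymphocyte and glial sums. Markers of endothelium were higher for 10 of 10 genes (median 0.48), from 589 to 703 CPM in FXR+/+ and from 734 to 1172 in FXR-/- libraries. By edgeR, 8 of the 10 were higher at an unadjusted p under 0.05, where 6.18% of all genes were. Markers of macrophages were higher for 7 of 8 (median 0.34), from 116 to 153 against 154 to 179 CPM. Pericyte and smooth muscle markers, higher for 10 of 10 (median 0.26), ran from 191 to 231 and from 213 to 311 CPM, and glial markers, higher for 6 of 6 (median 0.58), from 11.5 to 21.6 and from 20 to 22.2 CPM. Acinar markers were higher for 19 of 21 (median 0.42), from 47969 to 143961 and from 68033 to 163967 CPM. Ductal markers were higher for 6 of 9 (median 0.37), with Spp1 at 1.08, and ran from 479 to 708 and from 522 to 814 CPM. At an unadjusted p under 0.05 by edgeR, 3 of the 9 were higher, where 6.18% of all genes were. Lymphocyte and lymph node markers were lower for 3 of 3 (median -0.78), from 20.7 to 48.4 and from 15.6 to 26.2 CPM. Of the mesothelial markers 1 was higher and 1 lower (median -0.03), from 69.8 to 119 and from 49.1 to 77.6 CPM, and the 1 adipocyte marker tested had 0.62. The medians of the endocrine lists were 0.07 for beta, 0.14 for alpha, 0.11 for delta and 0.24 for PP cells. By edgeR no marker had an adjusted p under 0.05 (0% of all genes). By DESeq2 2 endothelial, 1 beta cell, 1 ductal and 1 mesothelial marker did (1.15% of all genes). The part of these cells in the Cyp26b1 difference, and which cells hold its RNA, was not tested beyond the fit with a term for acinar RNA.

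**Figure D3:**
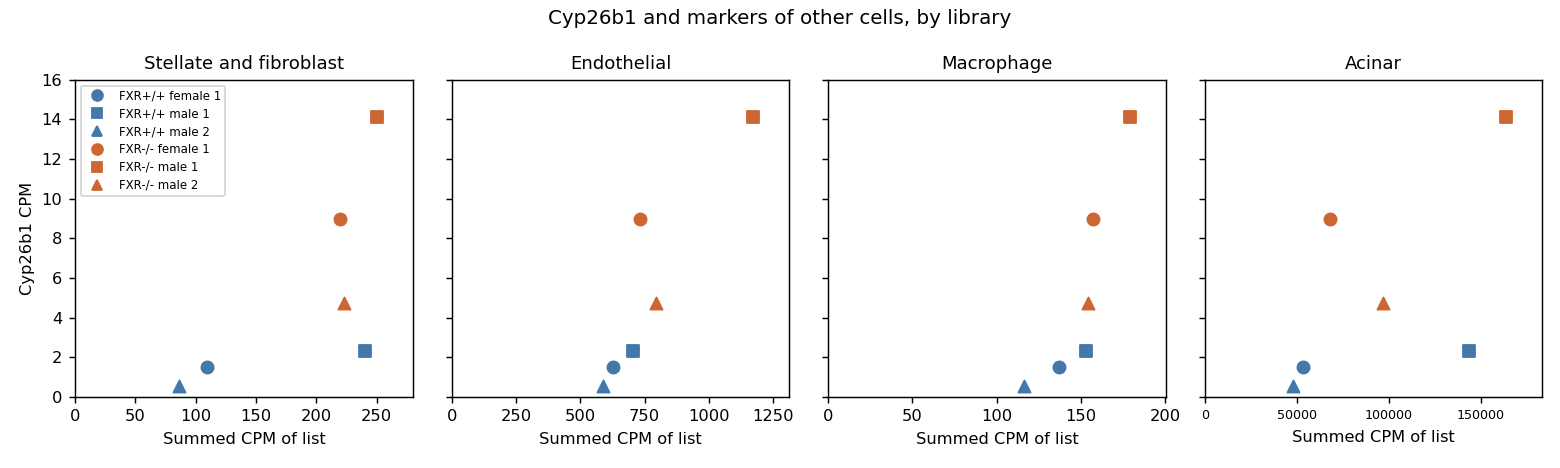
Cyp26b1 CPM (vertical axis) against the summed CPM of 4 lists of markers (horizontal axes, each from 0), with 1 symbol for each library, FXR+/+ in blue and FXR-/- in orange. The FXR+/+ male 1 library lies at 240 CPM of fibroblast markers, within the 220 to 250 of the FXR-/- libraries, with 2.33 CPM of Cyp26b1.

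The 5 genes whose profiles over the 6 libraries were nearest to that of Cyp26b1 were Rhou (r = 0.997), Ndrg1 (0.996), Arhgef10l (0.994), Mmp14 (0.993) and Notch1 (0.992). Their span was far smaller: Ndrg1 went from 127 CPM in FXR+/+ male 2 to 189 CPM in FXR-/- male 1. The retinoic acid receptor gene Rarb ranked 8 of 14618 (r = 0.988), with 0.682, 0.892 and 0.568 CPM in FXR+/+ and 1.3, 1.58 and 1.18 CPM in FXR-/- libraries. With 6 points and a gap between genotypes, such values describe an order of libraries and no more.

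Sex was not used in choosing the genes and could be tested, although each genotype has 1 female library, so sex and the female replicate cannot be told apart. By edgeR, 8 genes differed between female and male libraries at an adjusted p under 0.05 (0.0547%), none of them a member, and 1095 genes (7.49%) had an unadjusted p under 0.05, again without a member. Cyp26b1 averaged 5.22 CPM in the 2 female and 5.44 CPM in the 4 male libraries, a log2 difference of female minus male of 0.01 (SE 0.557, edgeR adjusted p = 0.998). The difference was 0.25 for Rbp4 (SE 0.13, edgeR adjusted p = 0.694), -0.03 for Rdh10 (SE 0.154, edgeR adjusted p = 0.969) and -0.23 for Aldh1a1 (SE 0.299, edgeR adjusted p = 0.849). The SE of Cyp26b1 leaves room for a sizeable difference in either direction.

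The other genes of the route were taken from 5 lists of 66 genes, of which 62 were counted and 42 tested. None had an adjusted p under 0.05 (edgeR, lowest adjusted p = 0.342, that of Lpl), against 0% of all genes. At an unadjusted p under 0.05, 8 were higher in FXR-/- islets and 0 lower, where 6.18% and 4.15% of all genes were, and the median log2 fold change was 0.20 against 0.01 over all genes. Those 8 were Lpl, Dhrs3, Rarb, Ppard, Hoxa3, Hoxb5, Tgm2 and Rarres2. All but Lpl and Ppard are the retinoic acid target genes described again below, and Rarb and Dhrs3 are each in another list too. Without the target list, 2 of 27 tested genes were higher at that threshold and 0 lower, with a median log2 fold change of 0.14. Of the 8, Hoxa3 passed the filter on low counts only through its FXR-/- libraries, and it is also among the genes without overlap given below. The count of 8 was 4 without FXR+/+ female 1, FXR+/+ male 2, FXR-/- female 1 or FXR-/- male 1, each left out on its own. It was 5 by DESeq2, which placed Lpl under an adjusted p of 0.05 (1.15% of all genes). Libraries did not overlap for 11 of the 42 with FXR-/- above (8.01% of all genes) and for 2, Rdh13 and Ugt1a6a, with FXR-/- below (7.37% of all genes). The markers of fibroblasts, endothelium and macrophages given above also had positive median log2 fold changes, although the fibroblast sums overlapped between genotypes. Their part in these counts was not tested.

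**Figure D4:**
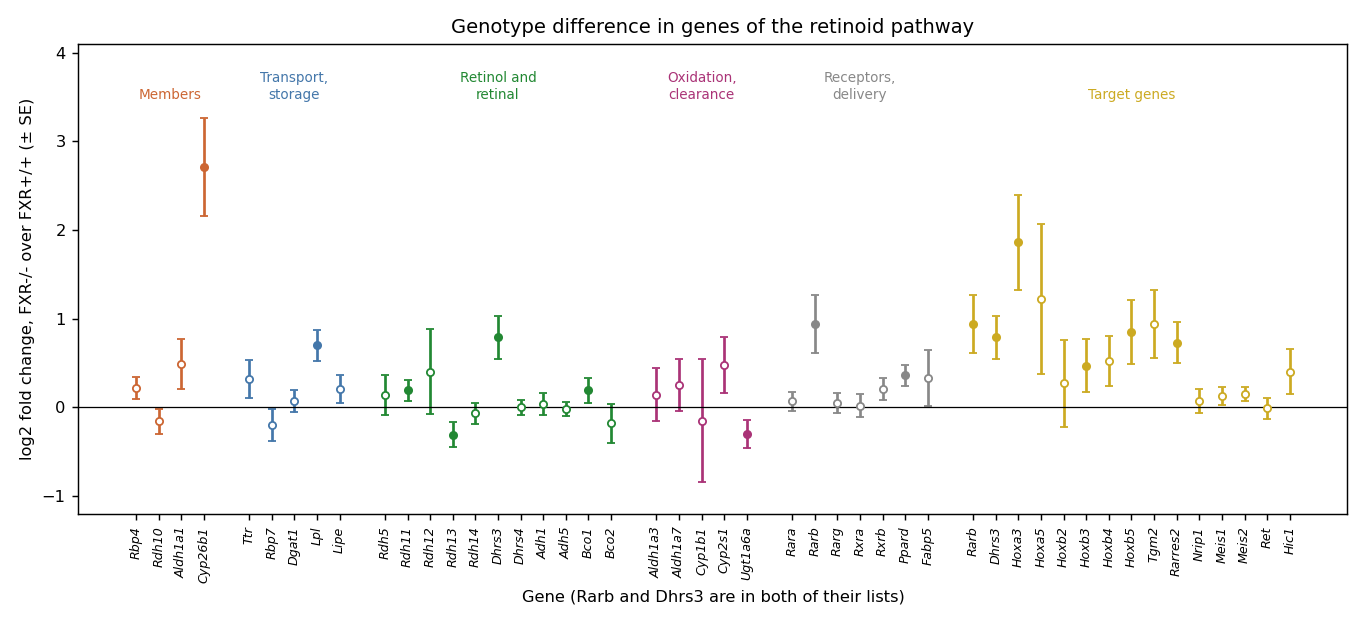
Log2 fold change of FXR-/- over FXR+/+ islets (± SE of the edgeR fit) for the 4 members tested and other tested genes of the retinoid route, by role, with filled symbols where the 3 libraries of each genotype did not overlap. Cyp26b1 stands at 2.71, and the next highest, Hoxa3, at 1.86. Hoxa3 passed the filter on low counts only through its FXR-/- libraries.

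Of 6 tested uptake and storage genes, 5 were higher and 1 lower, with a median log2 fold change of 0.26 against 0.01 over all genes. Lpl, the lipoprotein lipase that frees retinyl esters from circulating lipoproteins, had 168, 121 and 77 CPM in FXR+/+ and 221, 175 and 180 CPM in FXR-/- libraries, a log2 fold change of 0.70 (SE 0.175). Each FXR-/- library was above all 3 FXR+/+ libraries. Lrat, which esterifies retinol for storage and marks quiescent stellate cells, had at most 5 counts in any library. Rbp2, the retinol carrier of the intestine, had 78 counts in FXR+/+ male 2 and at most 5 in the others.

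Among 11 tested enzymes that interconvert retinol and retinal, 7 were higher and 4 lower, with a median log2 fold change of 0.04. Dhrs3, which reduces retinal back to retinol and is itself induced by retinoic acid, was at 6.6, 10.6 and 5.36 CPM in FXR+/+ and at 10.8, 15.3 and 12.9 CPM in FXR-/- libraries. Its log2 fold change was 0.79 (SE 0.242, edgeR adjusted p = 0.43), and every FXR-/- library was above every FXR+/+ library, by a narrow margin between female 1 and FXR+/+ male 1. The last of its listed exons, with 42, 80 and 52 counts against 66, 86 and 88, overlapped between the genotypes. Of 5 tested genes of retinal oxidation and other clearance, 3 were higher and 2 lower, and Cyp26c1, the remaining CYP26 enzyme, had at most 1 count.

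All 7 tested receptor and delivery genes had a log2 fold change above 0, as did 7536 of all 14619 genes tested. The 7 ran from 0.02 to 0.94, with a median of 0.21. Rarb was the highest, at 16, 18 and 18 counts in FXR+/+ and 32, 30 and 28 in FXR-/- libraries, with a log2 fold change of 0.94 (SE 0.326, edgeR adjusted p = 0.45). The genotypes did not overlap. Its last exon, with 9, 3 and 10 counts against 16, 7 and 12, lies beside the end of Top2b on the other strand, a gene of 1337 to 2518 counts, so a part of the Rarb counts is uncertain. The exon next to the DR5 had 2, 3 and 1 counts against 4, 6 and 3. Ppard, a receptor that can take retinoic acid from FABP5, had a log2 fold change of 0.36 (SE 0.117), while Rara, Rarg, Rxra and Rxrb lay between 0.02 and 0.21.

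Of 15 tested genes known to respond to retinoic acid, 14 were higher in FXR-/- islets and 1 lower (13 and 2 when libraries were scaled by their size alone), with a median log2 fold change of 0.52 against 0.01 over all genes. Of all 14619 genes tested, 7536 were higher, and 5009 with scaling by size alone. At an unadjusted p under 0.05, 6 of the 15 were higher and 0 lower, where 6.18% and 4.15% of all genes were. These 6 are among the 8 other retinoid genes given above. The count of 6 was 2 without FXR+/+ female 1, FXR+/+ male 2, FXR-/- female 1 or FXR-/- male 1. Hoxa3 had the largest difference, with 4, 3 and 8 counts in FXR+/+ and 14, 21 and 13 in FXR-/- libraries, a log2 fold change of 1.86 (SE 0.534, edgeR adjusted p = 0.415). All its FXR+/+ counts were under the minimum count of 10, so Hoxa3 passed the filter only through the FXR-/- libraries, where it was high. Its place among the genes tested, and so in the 14 and the 6, depended on those FXR-/- values. Hoxb5, with 15, 11 and 19 counts against 25, 27 and 20, had 0.85 (SE 0.358). Both encode homeobox factors of the embryonic body axis. Tgm2, a transglutaminase induced by retinoic acid in many cells, had 157, 284 and 143 counts against 432, 329 and 310, and its libraries overlapped after scaling. Rarres2, which encodes the adipokine chemerin, had 33, 34 and 41 counts against 60, 48 and 54, with a log2 fold change of 0.73 (SE 0.23). None of these genes was called by edgeR at an adjusted p under 0.05 with or without the replicate block. The fibroblast, endothelial and glial markers also had positive median log2 fold changes, although the fibroblast and glial sums overlapped between genotypes. Their part here was not tested.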

How the data were processed

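RNA was taken from islets of 3 FXR+/+ and 3 FXR-/- libraries, enriched for mRNA with oligo(dT) and primed with random hexamers. The authors deposited counts per gene (19342 genes, whole numbers, not normalized) and counts per exon (139263 exons). The submitters' processing notes name HISAT. Its version, the counting program and its use of strand are not given in the sources used here. The deposited tables of the authors' own DESeq comparison hold fold changes and p-values and were not used. No column lacked a sample, and no row lacked a gene.

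Gene counts were fitted in R 4.3.3 with edgeR 4.0.16: filterByExpr by genotype (minimum count 10, minimum total 15), TMM scaling, glmQLFit and glmQLFTest, the model holding sex and genotype, over all 6 libraries, with Benjamini-Hochberg adjustment over the 14619 genes tested. The prior degrees of freedom were 4.43. The model was tested on simulated data. SE values come from the F statistic. CPM is relative to library sizes after TMM scaling. Correlations used log2 of CPM with 0.01 added. Whether the genotype difference varied by sex was tested in a further fit. Precision is limited by the 20629306 to 30139235 counts of a library, and a count of 0 allows up to 3 counts, for counting error only.

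The replicate block treats libraries of the same number as pairs, which the labels do not state. Deviations from the genotype means correlated across genes at 0.359 for female 1, 0.351 for male 1 and 0.307 for male 2. Libraries of different numbers gave 0.00887 or less. The female 1 libraries also share their sex, and the male 1 libraries a high acinar share (14.1% and 14.6% of counts). What the numbers mark is not stated. Alternatives were the replicate block, no sex term, males alone, DESeq2 1.42.0, other scalings, other filters on low counts, a term for acinar RNA, exon counts summed per gene and each library left out. DESeq2 with the block was added after the data were seen.

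The members and the gene lists were chosen with earlier results of these data known. Genes named are the members, genes of the retinoid lists that were highest, under the threshold or not overlapping between genotypes, the genes of nearest profile (5 for Cyp26b1, 3 for each other member tested), listed markers and Nr1h4. Rarb's rank by profile, Aldh1a7, Lrat, Rbp2, Cyp26c1 and Top2b were named after their values were seen. Some listed genes are counted with their lists and are not reported here by name. Promoters are from RefSeq (GRCm38.p6), and gene positions and lengths from GENCODE vM21. Promoter and exon stretches annotated as UTR are not printed beyond 30 bases.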

Additional observations from a re-analysis of the deposited data

Results flagged for a closer look

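Among the 4 male libraries, Stra6 had 33 counts in FXR+/+ male 1 and 0 in the other 3, so Dixon's ratio was 1. With the other 3 at 0, any count above 0 gives that ratio, so it carries no weight of its own. The usual rate of about 1 in 20 groups marked by chance need not hold for such counts, and 9 genes were examined. The same library held Ms4a1 at 4.8 CPM and Cr2 at 4.61 CPM. Dixon's ratio of the other 8 genes ran from 0.379 for Aldh1a1 to 0.743 for Aldh1a2, none of them past the limit for 4 samples. No member had a genotype difference that differed between the sexes (edgeR interaction, adjusted p = 1 for each of the 4 genes tested, with 1 female library in each genotype).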

How the results depend on the processing

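The sign of the genotype difference held in all 18 alternatives for each of the 4 members tested. On the log2 scale it ran from 2.10 to 3.30 for Cyp26b1, 0.09 to 0.35 for Rbp4, -0.26 to -0.07 for Rdh10 and 0.26 to 0.74 for Aldh1a1. The alternatives reuse the libraries from which the members were chosen, so nothing is read from the signs. The count of members with an adjusted p under 0.05 was 0 and became 1, Cyp26b1, with the replicate block, with DESeq2 and the block, and with the term for acinar RNA. Over all genes the count was 0 and became 23 with the replicate block, 168 by DESeq2, 200 by DESeq2 with the block, 7 with the acinar term and 4 from exon counts. For the other retinoid genes it was 0 and became 1 by DESeq2 and 3 by DESeq2 with the block. The 8 of them with an unadjusted p under 0.05 became 4 in males alone and 5 by DESeq2, and 4 to 10 as each library was left out. The 6 target genes higher at that threshold became 2 in males alone, 3 by DESeq2 with or without the block, and 2 to 6 as each library was left out. Counts of adjusted p under 0.05 stayed at 0 without any 1 library for the members, the other retinoid genes and all genes. In edgeR the replicate block changed no other call at an adjusted p under 0.05 among the members and the retinoid lists, and at an unadjusted p it gave 8 higher and 1 lower of the other retinoid genes. Cyp26b1 in FXR-/- was at 1.73 CPM per kilobase, and at 3.87 per kilobase and 1000000 exon counts, a total that is smaller by construction. The cause of the other shifts was not tested. At this depth Stra6, Crabp1, Crabp2 and Cyp26a1 cannot be compared between genotypes.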
